A study of Homo sapiens with 12 samples.

Results

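RNA-seq of untreated 293T 4A cells was described across genes: which RNAs were abundant, which lineage markers were present or absent, which member of a gene family carried the reads, and how far the replicates differed. The RNA-seq samples labelled DMSO were taken, 3 of the 12 samples of the series, and all 58735 human gene rows of the count table were kept, of which 38357 held at least 1 read. 293T 4A cells are 293T cells, a line from human embryonic kidney that carries SV40 large T antigen, transduced with a lentiviral doxycycline-inducible 4EBP1 in which T37, T46, S65 and T70 are alanine, and sorted on GFP. All 3 samples received DMSO in place of doxycycline, for 12 h per the labels (the design text gives another time), and cycloheximide for 10 min before harvest. No treated sample was used. The study calls its replicates biological, but the labels do not say that they came from separate cultures, so the spread given here may be technical in part.

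The libraries held 57824136, 54296349 and 51519700 reads on gene rows in replicates 1, 2 and 3, so 1 CPM (reads scaled to 1000000 reads on genes in each library) was at least 51.5 reads. The floor of 3 reads was 0.0519, 0.0553 and 0.0582 CPM. Values cover counting error and the spread between 3 libraries only. Between 69.2% and 74.8% of all reads fell on no gene row, mainly reads aligned to several places (54.9% to 62.3%). No pair of libraries was alike within sampling noise, since the mean squared difference per gene was 7.84 to 11.8 times that of counting alone. Most listed genes of the endoplasmic reticulum were lowest in replicate 1 and highest in replicate 3, and the libraries also differed with GC content. Both are described with the spread between replicates, and no comparison between conditions was made.

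HEK293 cells came from a culture of embryonic kidney transformed with adenovirus DNA, and grow as adherent cells without the features of a differentiated tubule. The developing kidney is built from nephron progenitors, which are mesenchymal cells that carry transcription factors such as SIX2 and SALL1. These cells then turn into epithelium, and the segments of the mature nephron each switch on their own transporters and channels. A set of markers can thus separate early from mature kidney identity.

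Of 58735 genes, 14693 reached 1 CPM in each of the 3 libraries, among them 12600 protein-coding genes and 1282 lncRNA genes. The share of protein-coding genes at this level was 63.5% (12600 of 19831), and this is the background for the marker counts that follow. At the other end, 4235 protein-coding genes (21.4%) had 3 reads or fewer in every library. Reads were concentrated in few genes: the 10 with the most reads held 17.7% ± 0.885 (SD, n = 3) of all gene reads, the first 100 held 25.1% ± 0.781, and 1088 genes made up 50% of them. A protein-coding gene at 1 CPM or more had a median of 36.0 CPM, against 2.88 CPM for an lncRNA gene at this level.

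By class, nuclear protein-coding genes took 80.4%, 81.9% and 80.4% of gene reads in replicates 1, 2 and 3. The 2 ribosomal RNAs of the mitochondrion, which form the core of its ribosome, took 15.5%, 14.0% and 15.5%, while the 13 mitochondrial mRNAs took 0.357% ± 0.0148. Within the nuclear protein-coding share, the mRNAs of 87 cytosolic ribosomal protein genes held 2.77% ± 0.0412 and the clustered histone genes held 0.572% ± 0.0171. The class of lncRNA held 1.89% ± 0.0436. The 7SL RNA genes, which encode the RNA of the signal recognition particle, held 0.902% ± 0.0891. Each other class of nuclear RNA held 0.407% or less.

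The most read gene was MT-RNR2, the large mitochondrial rRNA, at 131120, 115876 and 129330 CPM, followed by MT-RNR1, the small one, at 23503, 24192 and 25454 CPM. RN7SL2, a 7SL RNA gene, came next with a mean of 8155 CPM ± 845. All exon bases of RN7SL2 overlap another annotated gene, and 7SL has many copies in the genome, so its level is uncertain. XIST, a lncRNA that coats the X chromosome, was the most read lncRNA at 5727, 5877 and 5575 CPM. Of its exon bases 30.5% overlap another annotated gene, and without strand the reads of both cannot be told apart. MALAT1, a lncRNA of nuclear speckles, followed at 1674 CPM ± 138. The next lncRNAs were SNHG29 at 373 CPM, NEAT1 (the scaffold of paraspeckles) at 357, SNHG16 at 230.4, GAS5 at 229, NORAD (a binder of Pumilio proteins) at 201, SNHG1 at 185, KCNQ1OT1 (from the imprinted KCNQ1 region) at 134 and OIP5-AS1 at 132. Several of these host snoRNAs in their introns. In number of reads, XIST and MALAT1 thus stood far above the other lncRNA genes.

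Among nuclear protein-coding genes, EEF2, the elongation factor that moves the ribosome along the mRNA, was first with 3773, 4222 and 4006 CPM. RACK1, a scaffold protein of the small ribosomal subunit, followed with 2455, 2399.6 and 2451 CPM. PRKDC, the catalytic subunit of the DNA-dependent protein kinase, had 1778, 1869.8 and 1812 CPM. Next came ENO1 (a glycolytic enolase), RPS4X, ACTG1 (cytoplasmic gamma actin), DDX17 (an RNA helicase) and GAPDH, between 1483 and 1643 CPM in the mean. The places below held DYNC1H1 (the dynein heavy chain), FLNA (filamin A), HSPA8 (the constitutive cytosolic HSP70), NUCKS1, PLS3 (an actin bundler), CANX (an ER lectin chaperone), HNRNPU, ACTB, RPS6, RPL8, IRS4 and EIF4G1, between 1053 and 1338 CPM. IRS4, an adaptor of the insulin and IGF1 receptors, had 1002, 1168 and 1074 CPM. In number of reads, EEF2, RACK1, PRKDC and ENO1 did not overlap with the gene next in order, while each of RPS4X, ACTG1 and DDX17 overlapped with its successor.

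**Figure D1:**
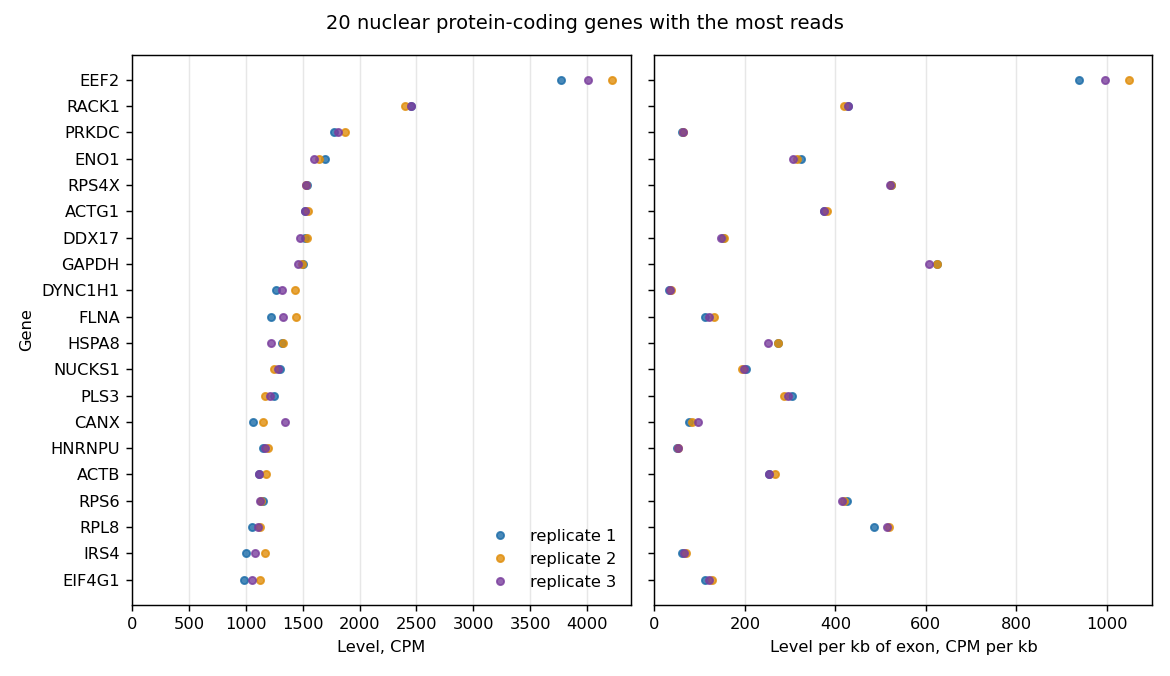
Levels of the 20 nuclear protein-coding genes with the most reads, each point 1 library, as CPM (left) and as CPM per kb of exon (right). EEF2 leads on both scales, while PRKDC and DYNC1H1, whose exons are long, fall to 62.6 and 34.4 CPM per kb.

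A long transcript gives more reads than a short one at the same number of molecules, so genes were compared with each other per kb of annotated exon. On this scale the linker histone genes H1-4 and H1-2 led the nuclear protein-coding genes with 1202 ± 28.1 and 1184 ± 33.7 CPM per kb (SD, n = 3), a difference within their spread. EEF2 followed with 995 ± 55.8, then GAPDH with 619 ± 9.82 and H4C3 with 609 ± 19.9 CPM per kb. Of the first 20 genes per kb, 7 were also among the first 20 by reads: EEF2, RACK1, GAPDH, RPS4X, RPL8, RPS6 and ACTG1. Core histone genes (H4C3, H4C2, H4C4, H4C5, H2AC11, H2AC12 and H2AC20) held 7 other places, and TMSB10, an actin-binding beta thymosin, stood at 472 ± 26.3. The histone genes are short and their mRNAs carry no poly(A) tail in dividing cells.

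Nephron progenitor markers were the best represented of the kidney lists: 12 of 15 reached 1 CPM in each library, against 8 of 34 markers of the 4 mature segment lists (background 63.5%). At 10 CPM in each library 5 of the 15 remained, beside 9954 of 19831 protein-coding genes with a mean of 10 CPM or more. SIX2, a factor that keeps the progenitors undifferentiated, had 12.8, 14.8 and 13.4 CPM. SALL1, a zinc finger protein of the same cells, had 37.0, 42.9 and 38.9 CPM. The 3 libraries lay close together for both genes. Per kb, HOXD11 (a patterning factor of the kidney) stood at 9.79 ± 0.418, SALL1 at 6.28 ± 0.480 and SIX2 at 6.19 ± 0.473 CPM per kb. The ranges of SALL1 and SIX2 overlapped, and both lay below that of HOXD11. The transcription cofactor CITED1 had 5.26, 7.48 and 7.55 CPM, lowest in replicate 1. Also above the threshold were the Notch ligand JAG1, LHX1, WT1, EYA1, GDNF (the ligand that draws out the ureteric bud), PAX2 and OSR1, between 1.20 and 24.4 CPM in the mean. PAX8, a factor of the early nephron epithelium, was at the floor with 2, 1 and 0 reads. In this list, therefore, progenitor factors were measured, while PAX8 was not detected above the floor.

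Markers of the mature nephron were mostly low. In the proximal tubule list, 3 of 10 reached 1 CPM: LRP2 (megalin, an endocytic receptor) with 26.6, 26.9 and 27.1 CPM, SLC13A3 (a dicarboxylate transporter) with 8.06, 8.71 and 7.997, and CUBN (cubilin) with 1.61, 1.07 and 1.34. The transporters SLC5A2, SLC34A1, SLC22A6 and SLC22A8 had 3 reads or fewer in every library. In the list of the loop of Henle and distal tubule, 1 of 8 passed, TRPM6 (a magnesium channel), and UMOD (uromodulin), SLC12A1 and CLDN16 were at the floor. None of 8 collecting duct markers reached 1 CPM in each library, and AQP2 (the vasopressin-regulated water channel) and FOXI1 had 0 reads in all libraries, which allows at most the floor of 3 reads. AVPR2 and SCNN1G were also at the floor. The podocyte list had 4 of 8, among them PODXL (podocalyxin, a sialoprotein of the cell surface) with 44.7, 46.9 and 45.4 CPM, and SYNPO and PTPRO with 1.003 to 1.47 CPM. PLA2R1 and TCF21 were at the floor.

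The promoters of a progenitor marker and of a segment marker are shown because the measured genes and the genes at the floor differed in CpG content. Both run from 250 bases before the RefSeq start to 50 after it on GRCh38.p14, and CpG pairs are in capitals. SIX2 lies at chr2:45009403-45009702 on the minus strand and its window has 29 CpG pairs. UMOD lies at chr16:20352666-20352965 on the minus strand and its window has 2.
SIX2: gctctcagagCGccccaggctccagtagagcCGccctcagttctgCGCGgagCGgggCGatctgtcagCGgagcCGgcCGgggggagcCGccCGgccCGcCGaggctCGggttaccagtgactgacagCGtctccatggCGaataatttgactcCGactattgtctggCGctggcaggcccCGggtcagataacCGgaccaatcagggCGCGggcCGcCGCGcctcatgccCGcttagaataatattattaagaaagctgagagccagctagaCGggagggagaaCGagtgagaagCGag
UMOD: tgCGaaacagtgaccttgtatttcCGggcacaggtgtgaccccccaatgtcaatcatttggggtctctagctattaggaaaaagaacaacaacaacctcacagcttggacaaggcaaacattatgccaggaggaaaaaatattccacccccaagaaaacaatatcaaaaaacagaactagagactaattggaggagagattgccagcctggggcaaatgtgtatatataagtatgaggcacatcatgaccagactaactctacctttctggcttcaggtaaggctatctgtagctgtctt
Over 10227 protein-coding genes at 1 CPM or more with a promoter in the table, the median was 27 CpG pairs in 300 bases (25th and 75th percentile 19 and 35). Over 2845 genes at the floor it was 4 (2 and 11). The letters TATAAA on either strand were found for 8.39% of the first set and 24.3% of the second, against 14.0% of all 27305 genes in the table. These are descriptions of sequence and not of what drives a gene.

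Mesenchymal markers were present in 13 of 17 cases (76.5%, background 63.5%), and 6 of the 17 reached 10 CPM in each library. VIM, the intermediate filament of mesenchymal cells, had 727, 777 and 779 CPM and led the list with 147 ± 5.73 CPM per kb. CDH2 (N-cadherin) had 17.4 ± 0.0953, SNAI2 (a repressor of epithelial genes) 8.65 ± 0.629 and ZEB1 (another such repressor) 6.44 ± 0.379 CPM per kb. Other members above the threshold were FN1, TWIST1, TWIST2, ZEB2, COL1A1, PRRX1, LUM, COL3A1 and PDGFRA. COL1A2, which encodes the partner chain of COL1A1 in collagen I, was at the floor with 2, 1 and 0 reads, while COL1A1 had 457, 543 and 417 reads.

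Epithelial markers were present in 4 of 14 cases (28.6%, background 63.5%). The keratin KRT18 led with 7.84 ± 0.816 CPM per kb, ahead of ESRP2 (a splicing factor of epithelia) with 1.05 ± 0.136, KRT8 with 0.910 ± 0.0943 and CDH1 (E-cadherin) with 0.351 ± 0.00999. KRT18 and KRT8 have 67 and 51 named pseudogenes in the annotation, so uniquely aligned reads may miss part of their RNA, which was not tested. KRT7, GRHL2 and CDH16 (a cadherin of kidney tubules) were at the floor. CDH2 held 95.8% ± 0.128 of the classical cadherin reads per kb, and CDH1 held 1.94% ± 0.0642.

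Neuronal markers reached 1 CPM in 11 of 18 cases (61.1%), close to the background of 63.5%, and none was at the floor. NEFH, TUBB3, STMN2, ELAVL3, ELAVL4, DCX and SYN1 were under 1 CPM in at least 1 library. UCHL1, a ubiquitin hydrolase abundant in neurons, had 242, 239 and 240.2 CPM. The neurofilament genes NEFL, NEFM and INA had 25.6 ± 1.32, 20.7 ± 2.88 and 6.89 ± 0.443 CPM per kb, and the 3 ranges did not overlap. ENO2, SYP, SYT1, GAP43, RBFOX3, MAP2 and SNAP25 also passed, between 1.22 and 17.3 CPM. TUBB3, the neuronal tubulin, had only 24, 20 and 32 reads. Of its exon bases 21.3% overlap another gene on the same strand, where reads are not assigned, and the part of this in its level was not tested. TUBB3 was named after its values were seen.

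Other lineages were represented by few genes. The glial list had OLIG2, MBP and ALDH1L1 above the threshold (3 of 10), and S100B, MOG and SOX10 at the floor. The muscle list had NKX2-5, MYH3 and TTN (3 of 12). NKX2-5, a cardiac homeobox factor, stood out with 38.1, 42.0 and 40.1 CPM, while MYF5, MYOG, MYL2, MYH6 and TNNT2 were at the floor. The pluripotency list had SOX2 (10.1, 10.8 and 10.3 CPM) and SALL4 (5.67, 5.69 and 5.16 CPM), and POU5F1, NANOG, ZFP42, DPPA4, TDGF1, DNMT3L and L1TD1 were at the floor (2 of 12 passed). The adrenal list had 1 of 12, the secretory granule protein CHGA, with CYP11A1, HSD3B2, MC2R, TH and DBH at the floor. The keratinocyte list also had 1 of 14, KRT10, with 5.41, 4.92 and 5.09 CPM. KRT1, KRT2, KRT5, KRT14, IVL, DSG1, DCD, LCE1A and loricrin (LORICRIN) were at the floor.

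In the blood list 2 of 14 passed, among them RUNX3 with 1.40, 1.57 and 2.14 CPM, and PTPRC (CD45, carried by all white blood cells), CD3E, MS4A1, HBB and PPBP were at the floor. No marker of endothelium (0 of 8) or of liver (0 of 12) reached 1 CPM in each library, and CDH5, CLDN5, TIE1, AFP, APOA2, APOB, SERPINA1, HNF4A, CYP3A4, FGA and TTR were at the floor. Cancer-testis genes, which are normally expressed in germ cells, passed in 7 of 21 cases. PRAME led with 75.2, 74.3 and 71.6 CPM and 19.4 ± 0.492 CPM per kb. MAGEA3 followed with 5.07 ± 0.200, TEX15 with 4.17 ± 0.218 and MAGEB2 with 3.42 ± 0.0448 CPM per kb, then MAGEA6, MAGEA1 and MAGEC2. PAGE1, PAGE4, DDX43, SSX1, SSX2, GAGE1, BRDT, CTAG1B and XAGE1B were at the floor. Many of these lie in clusters of near-identical copies, where unique reads are lost, so their floor values are uncertain.

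Over the 17 lineage lists, 67 of 213 members passed (31.5%), against 63.5% of all protein-coding genes. Lineage markers were chosen for restricted expression, and the lists were chosen with earlier results of these data known.

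**Figure D2:**
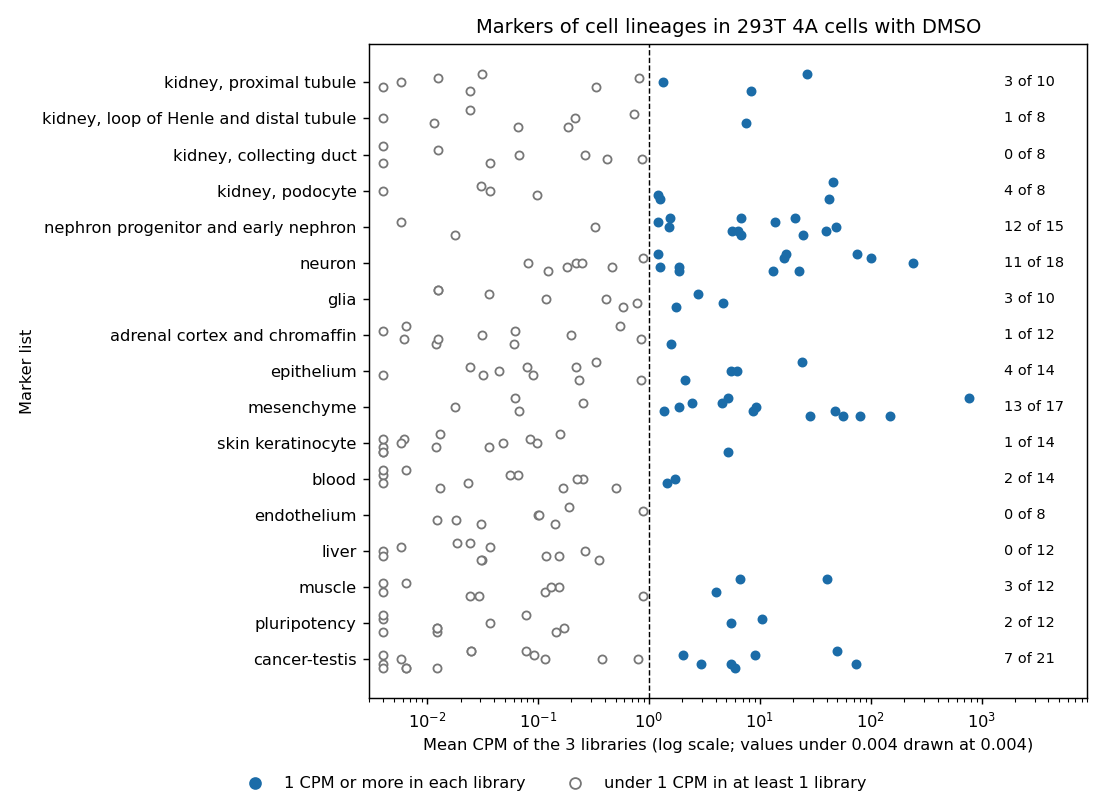
Mean CPM of each marker (1 point per gene, log scale) in 17 lineage lists, with the number at 1 CPM or more in each of the 3 libraries printed at the right. The nephron progenitor (12 of 15) and mesenchyme (13 of 17) lists have most members to the right of the 1 CPM line, and the collecting duct, endothelium and liver lists have none at 1 CPM or more in every library.

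Cells detect foreign nucleic acid with cytosolic sensors and with Toll-like receptors, and both pass the signal through adaptor proteins to kinases and IRF factors. Of 18 genes of cytosolic sensing, 11 reached 1 CPM (61.1%, background 63.5%). The adaptor MAVS had 147, 175 and 152 CPM, and per kb the leaders were MAVS with 13.4 ± 1.26, EIF2AK2 (PKR, a sensor of double-stranded RNA) with 12.2 ± 0.500, IRF3 with 11.4 ± 1.09 and TRIM25 with 5.33 ± 0.245. The ranges of MAVS, EIF2AK2 and IRF3 overlapped. The kinases TBK1 and IKBKE, STING1, IRF7, RIG-I (DDX58), OAS3 and IFI16 also passed. CGAS, the DNA sensor upstream of STING1, had 0.277, 0.460 and 0.485 CPM and was named after its values were seen. The DNA sensors AIM2 and ZBP1 had 0 reads in every library, and OAS1 and OAS2 were at the floor.

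Of 17 genes of the Toll-like receptor list, 7 reached 1 CPM (41.2%, background 63.5%), and 5 of these act downstream of the receptors. The kinase IRAK1 had 433, 495 and 446 CPM and 107 ± 7.66 CPM per kb, followed by IRAK4 with 4.10 ± 0.153, the ligase TRAF6 with 3.53 ± 0.320 and the adaptor MYD88 with 1.82 ± 0.202. TICAM1 came next. Of the receptors, TLR5 and TLR6 passed, at 1.05 to 1.45 CPM, and TLR2, TLR4, TLR8, TLR9 and TLR10 were at the floor.

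FGF ligands bind receptor tyrosine kinases of the FGFR family, which signal through the adaptor FRS2 and induce inhibitors of the SPRY and SPRED families. The FGF list had 16 of 32 members at 1 CPM or more (50%, background 63.5%). All 5 receptor genes passed. FGFR3 had 115, 127 and 109 CPM and FGFR1 had 93.7, 111 and 98.0 CPM, yet per kb FGFR3 stood at 24.1 ± 1.90 and FGFR1 at 5.87 ± 0.525, since the annotated exons of FGFR1 are longer. FGFRL1, a receptor without a kinase domain, had 8.64 ± 0.806, FGFR4 3.48 ± 0.406 and FGFR2 2.44 ± 0.159 CPM per kb. FGFR1 was thus below FGFR3 and FGFRL1 and above FGFR4 and FGFR2, beyond the spread in each case. With the length of the longest coding transcript in place of all exons, FGFR3 still held 48.3% and FGFR1 30.4% of the 4 kinase receptors.

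Inhibitors and adaptors were present with SPRY2 at 8.94 ± 0.0661, FRS2 at 5.82 ± 0.481 and SPRY1 at 5.36 ± 0.258 CPM per kb. SPRED1, SPRED2 and FRS3 also passed. Among the ligands, FGF2 had 18.9, 18.1 and 18.8 CPM and 2.73 ± 0.0640 CPM per kb, FGF9 had 6.17, 6.26 and 6.11 CPM, and FGF5, FGF12 and FGF13 passed. FGF1, FGF3, FGF4, FGF7, FGF16 and the coreceptor KL were at the floor.

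Of 35 other receptor tyrosine kinases, 24 reached 1 CPM (68.6%, background 63.5%). MET, the receptor of hepatocyte growth factor, had 126, 114 and 114 CPM and led per kb with 16.3 ± 0.925, together with the collagen receptor DDR2 at 16.0 ± 0.528. EPHB4 followed with 14.1 ± 0.487 and PTK7 with 12.5 ± 0.754 CPM per kb. Only TIE1 was at the floor. Of 45 G protein-coupled receptors, 26 passed (57.8%, background 63.5%). SMO (the Hedgehog transducer) had 13.2 ± 0.929, LGR4 (an R-spondin receptor) 12.1 ± 0.533, P2RY1 (an ADP receptor) 7.84 ± 0.338 and LPAR3 (a lysophosphatidic acid receptor) 7.71 ± 0.460 CPM per kb. The ranges of P2RY1 and LPAR3 overlapped. HTR1A, CHRM1, CHRM2, OPRM1 and MC4R were at the floor.

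The Wnt and cadherin list had the highest share, 21 of 24 (87.5%, background 63.5%), and 14 of the 24 reached 10 CPM in each library. CTNNB1 (beta-catenin, which joins cadherins to the cytoskeleton and carries the Wnt signal) had 730.2, 722 and 696 CPM and 60.9 ± 1.52 CPM per kb. CTNNA1 had 27.5 ± 0.514, JUP (plakoglobin) 18.6 ± 1.73 and CDH2 17.4 ± 0.0953 CPM per kb. All 10 Frizzled receptor genes passed, and so did the coreceptor genes LRP5 and LRP6. CTNNA2 was at the floor.

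Where a family has several members with like function, the share of each in the family sum, per kb of exon, shows which one led in counted RNA. Protein was not measured. Among 49 families with 178 members, the leading member held 80% or more in 17, from 50% to under 80% in 21 and less in 11. In 25 families every member reached 1 CPM. Shares were stable between libraries, and the largest SD of a leading share was 3.38 percentage points. The leader was the same in 44 families without division by length, and in 42 with the length of the longest coding transcript.

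In energy metabolism, leaders were mostly the widely expressed forms. PKM held nearly all pyruvate kinase reads per kb with 98.4, 101.2 and 96.1 CPM per kb, while the liver form PKLR had 2, 4 and 5 reads. ENO1 held 98.5% ± 0.191 of the enolases, PGAM1 97.9% ± 1.01 of the phosphoglycerate mutases, and CKB, the brain form of creatine kinase, 98.8% ± 0.0636 of its family. LDHA held 67.5% ± 1.26 and LDHB 29.997% ± 1.12. Of the exon bases of LDHB 33.4% overlap another gene on the same strand, and the part of this in its level was not tested. SLC2A1 held 83.0% ± 0.548 of the glucose transporters. Hexokinase was split between HK2 with 57.2% ± 1.47 and HK1 with 42.7% ± 1.45, and HK1 led instead with the coding transcript length (54.9%). The phosphofructokinases PFKM, PFKL and PFKP held 43.4%, 32.0% and 24.5%, and PFKL led with the coding transcript length (39.8%).

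Aldolase was an exception, with ALDOC, the brain form, at 76.7% ± 0.944 and ALDOA at 23.2% ± 0.924. ALDOA had 400, 376 and 384 reads, and 54.2% of its exon bases overlap another annotated gene (42.8% on the same strand), where reads are counted as ambiguous. The low value of ALDOA therefore cannot be told apart from lost reads. Over nuclear protein-coding genes, 265 of 1091 with such an overlap over 50% reached 1 CPM in each library (24.3%), against 5999 of 7796 with an overlap up to 50% (76.9%) and 6323 of 10931 without overlap (57.8%).

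Mitochondrial and ion transport families were also led by the common forms. COX4I1, COX6A1 and COX7A2 held nearly all reads of their pairs, and their muscle or lung forms COX4I2, COX6A2 and COX7A1 were at the floor. Among adenine nucleotide translocases, SLC25A5 held 59.5% ± 1.19 and SLC25A6 38.8% ± 1.20. ATP1B3 held 92.8% ± 0.630 of the sodium pump beta subunits. ATP2A2 held 96.2% ± 0.442 of the SERCA pumps, which load calcium into the ER, with 25.2, 29.2 and 34.4 CPM per kb, highest in replicate 3. IP3 receptors were shared by ITPR2 (53.6% ± 2.40), ITPR3 (29.8% ± 2.84) and ITPR1 (16.5% ± 0.451). With the coding transcript length ITPR1 (37.5%) came before ITPR3 (20.9%).

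In the cytoskeleton, ACTG1 held 59.4% ± 0.522 and ACTB 40.4% ± 0.518 of the actins. TMSB10 held 97.5% ± 0.260 of the beta thymosins, with TMSB4X at 0.766% ± 0.0546. TMSB4X has 6 named pseudogenes and TMSB10 has 2, and the part of reads lost to such copies was not tested. MYH9 held 59.9% ± 0.440 and MYH10 34.3% ± 0.770 of nonmuscle myosin II, and MYH10 led with the coding transcript length. The tropomyosins TPM3, TPM4, TPM1 and TPM2 held 38.9%, 31.6%, 15.9% and 13.6%, and TPM4 led with the coding transcript length (45.7%). The B-type lamins LMNB2 and LMNB1 held 46.6% ± 0.670 and 44.6% ± 0.900, with ranges that did not overlap, and LMNA held 8.79%. LMNB1 came first with the coding transcript length (42.2%).

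Growth and signaling families were often split. NRAS held 65.6% ± 1.04 and HRAS 22.5% of the RAS genes. AKT1 held 41.8% ± 0.582 of the AKT kinases. CCND2 held 66.4% ± 1.31 of the D-type cyclins, CCND1 20.8% and CCND3 12.8%, and with the coding transcript length CCND3 (23.4%) came before CCND1 (17.8%). MYC held 91.9% ± 1.72 of its family. IGF1R held 60.2% ± 1.11 and INSR 39.7% ± 1.13 of the insulin receptor family. ERBB2 held 65.3% ± 1.89 of the EGF receptor family, EGFR 17.9% and ERBB4 14.0% (7.93% with the coding transcript length). NOTCH2 held 75.8% ± 1.97 and NOTCH3 15.3% of the Notch receptors. YAP1 held 76.3% ± 1.19 against WWTR1 (TAZ), and their partners TEAD1, TEAD4 and TEAD2 held 37.1% ± 0.945, 31.2% and 23.7%. Among calmodulin genes CALM3 held 43.0% and CALM2 31.7%, and CALM2 led with the coding transcript length (53.2%).

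Regulators of RNA and chromatin included embryonic forms. LIN28B, which blocks the maturation of let-7 microRNAs, held 99.9% ± 0.0527 of its pair with 18.9, 16.5 and 16.8 CPM per kb, while LIN28A had 7, 2 and 4 reads. IGF2BP1, an oncofetal mRNA-binding protein, held 64.4% ± 0.259, IGF2BP2 20.7% and IGF2BP3 14.99%, and with the coding transcript length IGF2BP3 (23.7%) came before IGF2BP2 (20.4%). DNMT1, the maintenance methyltransferase, held 68.1% ± 1.19, DNMT3B 19.6% and DNMT3A 12.3%, with DNMT3L at 0 reads. TET1 held 53.2% ± 0.405 of the TET dioxygenases, TET3 27.6% and TET2 19.1%, and with the coding transcript length TET2 (27.2%) came before TET3 (26.1%). AGO2, the slicing argonaute, held 41.8% ± 0.465, AGO1 31.7% and AGO4 16.8%. H2AZ1 held 91.2% ± 0.285 of the H2A.Z pair. KPNA2 held 32.4% ± 0.246 of the alpha importins, followed by KPNA6 (22.9%), KPNA1 (15.9%) and KPNA3 (14.8%). PRDX1 held 50.3% ± 0.708 of the peroxiredoxins, PRDX2 21.4%, PRDX4 15.8% and PRDX3 12.4%. UCHL1 held 65.2% ± 0.317 of the UCH deubiquitinases and BAP1 19.7%.

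Developmental transcription factor families differed in how evenly they were divided. GATA6 held 40.6% ± 0.970 of the GATA factors, GATA2 27.7%, GATA4 18.1% and GATA3 12.4%. PAX3 and PAX6 held 36.3% ± 1.03 and 31.0% ± 0.959 of the PAX genes, with PAX9 at 14.9% and PAX7 at 10.0%, and PAX6 led with the coding transcript length (42.1%). SOX4 held 73.4% ± 1.32 and SOX12 19.4% of the SOX genes examined.

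In the translation machinery, EEF1A1 held 60.5% ± 3.38 and EEF1A2, the neuronal and muscle form of the same elongation factor, 39.5% ± 3.38. The EEF1A1 value was 36.1, 32.0 and 34.2 CPM per kb, while EEF2 stood at 995, and EEF1A1 has 49 named pseudogenes, whose part in this level was not tested. EIF4EBP1, which encodes the cap-binding inhibitor 4EBP1, had 147, 152 and 160.2 CPM. It held 88.1% ± 0.536 of the family per kb, with EIF4EBP2 at 11.8% ± 0.553 and EIF4EBP3 at 9, 4 and 12 reads. Of the exon bases of EIF4EBP3 73.2% overlap another gene on the same strand, and the part of this in its level was not tested. By reads alone EIF4EBP2 was ahead (53.2%), since its exons are longer. The counts do not separate the EIF4EBP1 locus from the inducible copy, whose sequence is not given in the sources used here, so the level of either is unknown.

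**Figure D3:**
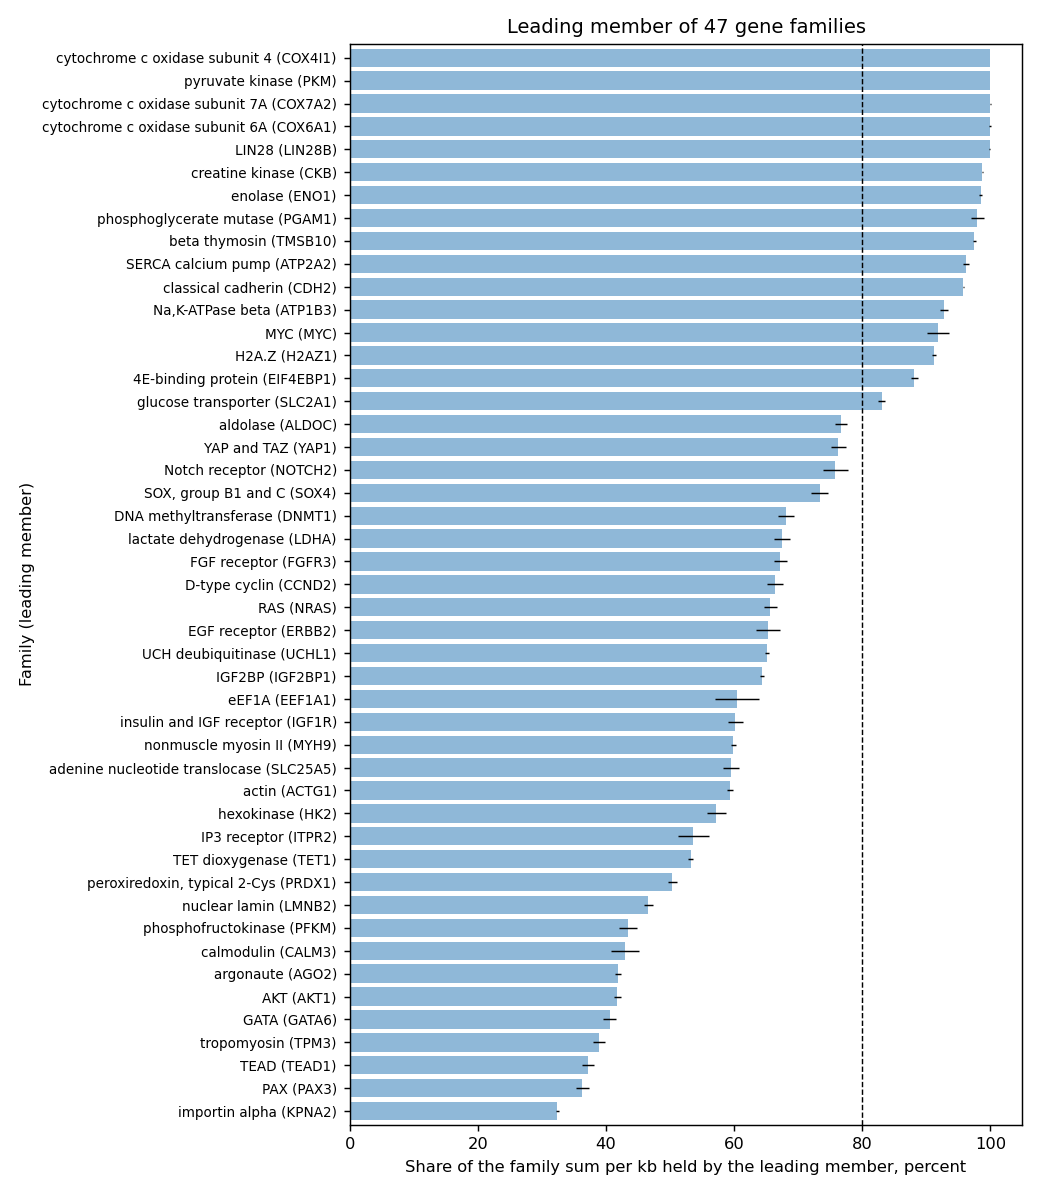
Share of each family sum (CPM per kb of exon) held by the leading member, in percent, with the SD of 3 libraries as the error bar and 80% as the dashed line. Of the 49 families 47 are drawn, of which 16 have a leading share of 80% or more, and importin alpha (32.4%) has the lowest.

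The spread between replicates was small for most genes. Over 15038 genes with a mean of 1 CPM or more, the median coefficient of variation (CV, the SD over the mean of 3 libraries) was 5.60%, against 2.62% for counting error alone. The common biological coefficient of variation of edgeR, fitted with an intercept only, was 6.21%. The median CV fell from 10.98% at 1 to 3 CPM, where counting error alone gives 10.4%, to 3.96% at 100 to 300 CPM, where it gives 1.13%. The median CV thus stood further above the counting value among high genes than among low ones. The counting value is an expected CV, and the median CV of 3 libraries tends to lie below an expected one. The spread beyond counting may therefore be understated, and how near low genes come to the counting limit was not tested. The smallest CV values, at 0.0982% to 0.123%, were those of STIM2, RCN2, RTN4, CASC3 and TRPT1, which is below counting error for each (1.09% to 3.03%) and cannot be read as tight control.

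A broad part of this spread followed GC content. Over 10261 genes with a mean of 10 CPM or more, the log2 ratio of replicate 2 to replicate 1 had a Spearman rho of 0.71 with exon GC content across genes, which are not independent replicates. Its median was -0.10 in the fifth of genes with the lowest GC (30.2% to 40.2%) and 0.17 in the fifth with the highest (57.3% to 74.2%). For replicate 3 over replicate 1 rho was 0.52, and for replicate 3 over replicate 2 it was -0.41. Exon length gave rho values between -0.19 and 0.07. Small differences of this kind were spread over many genes, and 67.2% to 81.9% of genes lay within 10% between any pair of libraries.

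Most of the genes with the largest spread belong to the endoplasmic reticulum (ER). The ER folds secreted and membrane proteins, and a cell senses unfolded protein there through the sensors IRE1 (ERN1), PERK (EIF2AK3) and ATF6. These raise the transcription of chaperones, of disulfide isomerases and of the machinery that removes misfolded protein, a program known as the unfolded protein response. HSPA5 (BiP), the ER HSP70 that the sensors bind, is its best known target. Of the 15 genes with the largest CV among those with a mean of 10 CPM or more, 14 were highest in replicate 3 and lowest in replicate 1, and 13 belong to a list of 50 ER genes that was put together after these values were seen. Of the 50 genes with the largest CV, 47 were highest in replicate 3 and 25 were on this list. The values chose this list, so it is a description.

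HSPA5 had 150.5, 313 and 622 CPM in replicates 1, 2 and 3, a CV of 66.2%. HERPUD1, a membrane protein of ER-associated degradation, had 68.3, 137 and 297 CPM, a ratio of 4.34 between replicates 3 and 1. SDF2L1, a cofactor of HSPA5, had 13.8, 23.2 and 52.7 CPM. DERL3, a derlin of the degradation channel, had 13.2, 23.9 and 49.1 CPM. For all of them the libraries were apart by far more than counting error, which was 0.713% to 2.53% of the mean.

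MANF, an ER factor secreted under stress, had 39.1, 61.4 and 115 CPM. DDIT3 (CHOP), a transcription factor downstream of PERK, had 27.5, 46.8 and 82.1 CPM. DNAJB9, an ER cochaperone, had 19.5, 31.2 and 56.2 CPM, and FICD, which modifies HSPA5 by AMPylation, had 10.1, 16.6 and 29.1 CPM. The lowest and the highest library differed 2.88-fold to 2.99-fold in these genes.

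Further down the order, PDIA4, a disulfide isomerase, had 286, 411 and 669.6 CPM. CRELD2 had 34.9, 51.3 and 79.5 CPM, SEC24D (a coat protein of vesicles that leave the ER) 37.1, 47.0 and 77.5, HYOU1 (an ER HSP70 relative) 191, 265 and 406, and HSP90B1 (GRP94) 416, 599 and 889.97 CPM. CDK2AP2, a cell cycle gene outside the ER list, had 16.2, 21.5 and 35.0 CPM. The gene with the largest CV of the 15 (78.0%) was SNORD3B-2, a U3 snoRNA gene with near-identical copies, which went the other way with 21.1, 21.0 and 1.44 CPM.

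**Figure D4:**
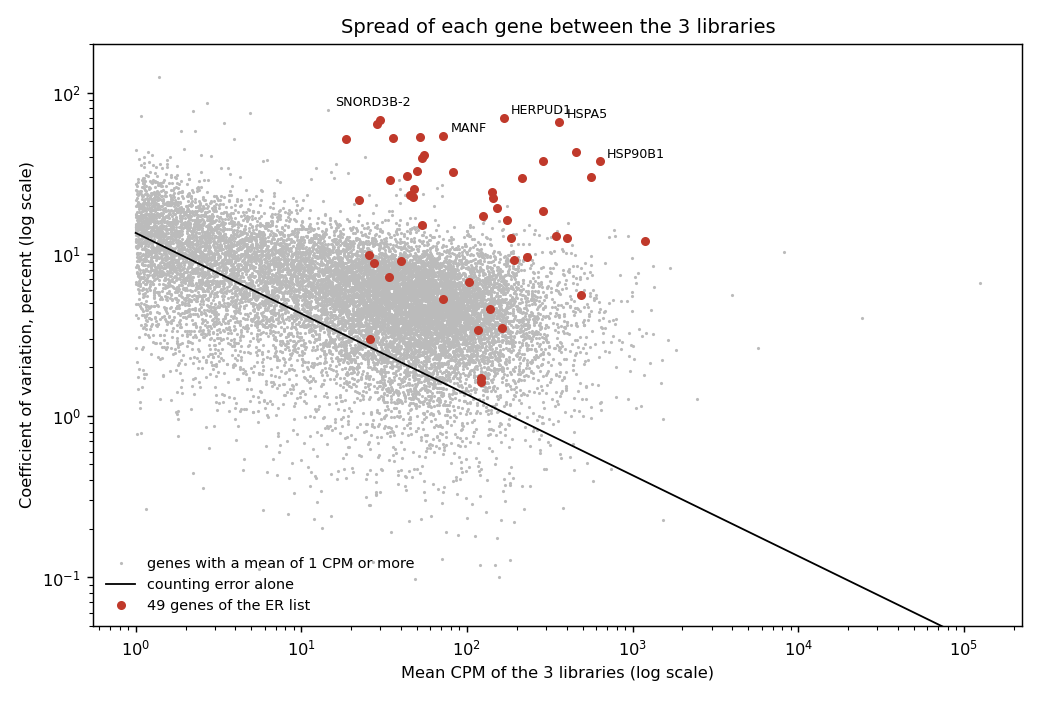
CV over the 3 libraries against mean CPM for genes with a mean of 1 CPM or more (both axes log), with the CV from counting error alone as the line and the 49 ER genes with a mean of 10 CPM or more in red. HSPA5 (66.2%) and HERPUD1 (70.0%) lie far above the cloud of genes at like levels.

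Over the 49 ER genes with a mean of 10 CPM or more, the median ratio of replicate 3 to replicate 1 was 1.51, beside 0.989 over all 10261 genes. Of the 49 genes 44 were highest in replicate 3, compared with 1526 of 10261 genes (14.9%). Since the list was put together after these values were seen, both contrasts describe the list and are not a test of it. The groups of the list differed in size. ER chaperones and cofactors (15 genes) had a median ratio of 2.12, from 1.01 for SIL1 to 4.13 for HSPA5. Genes of ER-associated degradation (11) had 1.51, disulfide bond enzymes (7) 1.41, sensors and transcription factors (10) 1.41, and translocation and export (6) 1.24. TXNDC5 was below 10 CPM, with 3.91, 6.04 and 8.66 CPM. Of its exon bases 60.95% overlap another gene on the same strand, and the part of this in its level was not tested.

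The sensors did not move together. ERN1 had 29.2, 28.6 and 24.7 CPM and ATF6 had 119.9, 117 and 112, both lowest in replicate 3, while EIF2AK3 had 38.3, 43.9 and 61.7. XBP1, the factor whose mRNA is spliced by IRE1, had 155, 206 and 281 CPM, and gene counts do not show its splicing. ATF4, which is controlled mainly at translation, had 461, 493 and 515 CPM. Its targets CHAC1 and TRIB3 had ratios of 1.79 and 1.33 between replicates 3 and 1.

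The listed chaperones outside the ER showed no such difference. They were put together with the ER list, after values were seen. The 9 cytosolic or mitochondrial chaperones with a mean of 10 CPM or more had a median ratio of 0.926 between replicates 3 and 1 (0.865 to 1.04), and none was highest in replicate 3. HSPA8 had 1320, 1326 and 1222 CPM, and HSPD1, of the mitochondrial matrix, had 507, 498 and 499 CPM. HSPA1A had 0.156, 0.295 and 0.233 CPM while its near-identical copy HSPA1B had 245, 258 and 219, so reads of the pair were not split evenly and both are uncertain.

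GC content and single libraries were examined beside this difference. The exons of HSPA5 have a GC content of 46.1% and the 15 genes a median of 50.3%, against 47.2% over all genes tested, and after removal of the median log2 ratio of each of 20 GC bins the same 15 genes had the largest CV. Without replicate 3, 11 of the 15 genes remained among the 15 with the largest CV, and the median ratio of the 49 ER genes between replicates 2 and 1 was 1.15. Without replicate 1, 13 of the 15 remained, with a median ratio of 1.30 between replicates 3 and 2. No label gives a batch, culture date or harvest order for these samples, and the source of the difference was not tested.

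**Figure D5:**
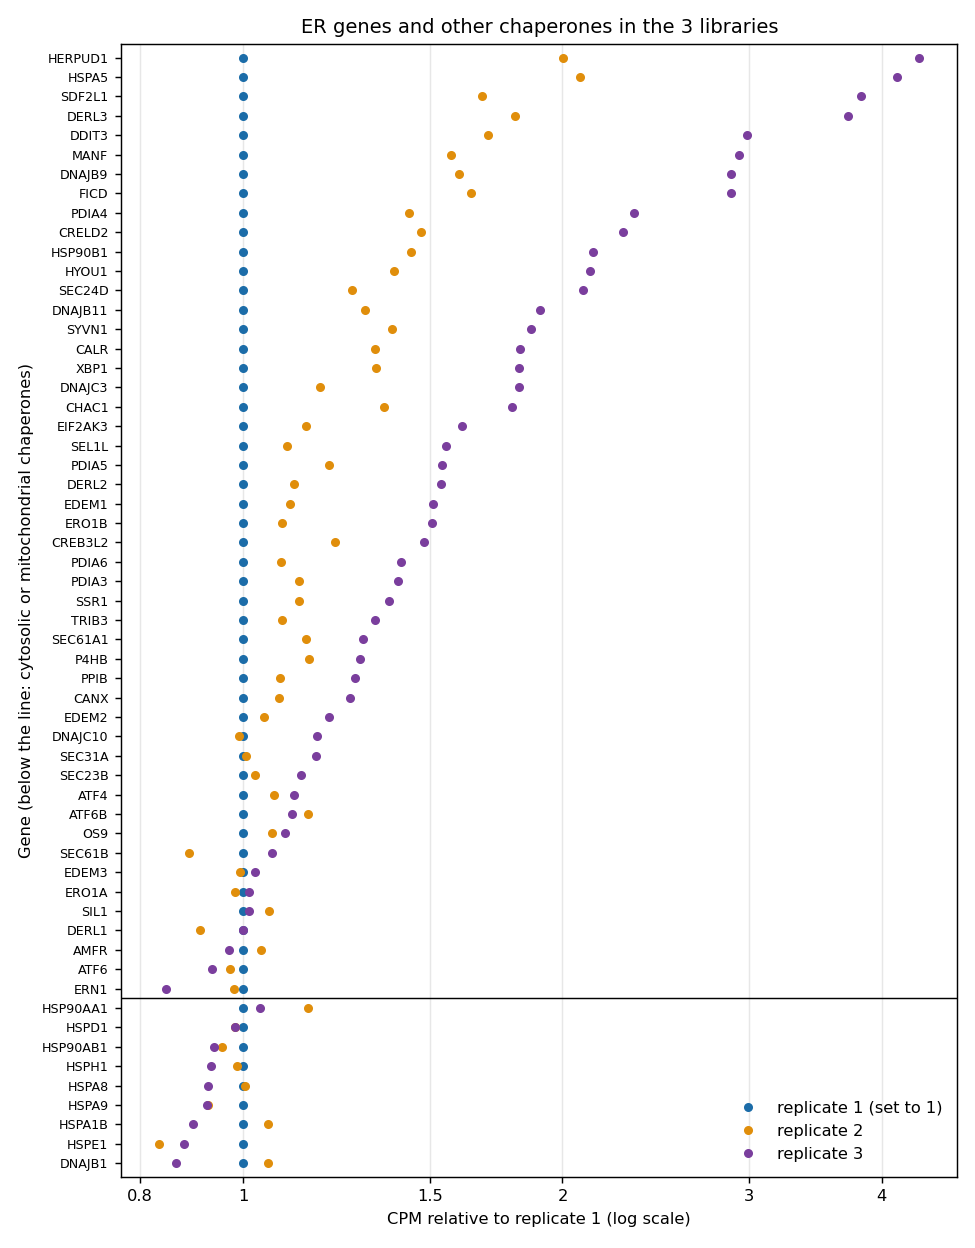
CPM of each gene relative to replicate 1 (log scale) in the 3 libraries, for 49 ER genes above the line and 9 chaperones of the cytosol or mitochondrion below it. Points of replicate 3 lie to the right for 44 ER genes, up to 4.34 for HERPUD1, and between 0.865 and 1.04 for the other chaperones.

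The promoters of the genes with the largest CV are shown because ATF6 and the spliced XBP1 are known to bind an ER stress response element. Searched on both strands were the element ERSE, spelled CCAAT, any 9 bases and CCACG, and its shorter form ERSE-II, spelled ATTGG, any 1 base and CCACG, in windows from 250 bases before to 50 after each RefSeq start. Both forms hold CCACG, and ATTGG is the complement of CCAAT. In the promoter table, 12 of the 15 genes were found, and SNORD3B-2, DERL3 and SEC24D were not. Counted per gene, ERSE matched 4 of the 12, 0.156% of the 8355 genes in the table with a mean of 10 CPM or more, and 0.0916% of all 27305 genes. ERSE-II matched 3 others of the 12, 0.156% of these 8355 genes and 0.0696% of all 27305. The 12 genes were picked by their CV in these same data, so shares of matches among them are a description and not a test. A match is a description of letters and not a site of binding, and MANF, DDIT3, DNAJB9, PDIA4 and CDK2AP2 had neither form in this window.
In HSPA5 the ERSE, in capitals, lies 66 to 48 bases before the start, at chr9:125241294-125241593 (minus strand, GRCh38.p14) for the whole window.
HSPA5: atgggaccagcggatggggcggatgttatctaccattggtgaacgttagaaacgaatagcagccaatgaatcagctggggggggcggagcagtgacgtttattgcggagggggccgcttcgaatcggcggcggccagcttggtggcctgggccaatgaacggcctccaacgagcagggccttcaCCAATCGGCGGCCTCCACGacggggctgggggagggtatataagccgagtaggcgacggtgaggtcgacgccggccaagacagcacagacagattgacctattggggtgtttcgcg
The other matches are shown with 20 bases on each side, 5′ to 3′ on the strand of the gene and with the element in capitals. HSP90B1 (chr12:103930196-103930359, plus strand) has an ERSE on each strand. FICD (chr12:108515103-108515161, plus strand) has 1 in the forward and CRELD2 (chr22:49918534-49918592, plus strand) 1 in the reverse direction.
HSP90B1: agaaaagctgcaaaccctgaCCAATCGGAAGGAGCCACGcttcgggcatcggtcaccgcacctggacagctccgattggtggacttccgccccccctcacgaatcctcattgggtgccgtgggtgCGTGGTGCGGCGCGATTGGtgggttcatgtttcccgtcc
FICD: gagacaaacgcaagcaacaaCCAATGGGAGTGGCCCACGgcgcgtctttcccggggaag
CRELD2: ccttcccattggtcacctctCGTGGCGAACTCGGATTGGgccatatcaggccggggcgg
The shorter element ERSE-II was found in HERPUD1 (chr16:56932005-56932055, plus strand), in SDF2L1 (chr22:21642094-21642144, plus strand, in reverse) and in HYOU1 (chr11:119057254-119057410, minus strand), which has 2 matches in reverse.
HERPUD1: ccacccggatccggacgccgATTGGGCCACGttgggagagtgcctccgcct
SDF2L1: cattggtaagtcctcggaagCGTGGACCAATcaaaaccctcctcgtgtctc
HYOU1: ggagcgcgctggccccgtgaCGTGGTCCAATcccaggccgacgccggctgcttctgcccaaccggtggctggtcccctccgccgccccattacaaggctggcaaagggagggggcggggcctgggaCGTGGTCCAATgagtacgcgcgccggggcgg
In the first match of HYOU1 the letters TGACGTGG, a known XBP1 core found in 0.729% of all promoters, overlap the element. The simple box CCAAT was found in all 12 of these genes, 44.6% of genes with a mean of 10 CPM or more, and 39.7% of all 27305 genes in the table. Across the 10261 genes, of which 8355 were in the promoter table, the genes with an ERSE were ALG12, CALR, CANX, CRELD2, EIF2A, ERO1B, FICD, HSP90B1, HSPA5, PDIA6, SERP1, XBP1 and ZNF17. Of these, 9 are on the ER list, which was put together after values were seen. From that list, CALR had 404, 538 and 737 CPM, ERO1B 39.6, 43.1 and 59.6, and CANX 1064, 1149 and 1342. Each was highest in replicate 3 and lowest in replicate 1. ALG12, EIF2A, SERP1 and ZNF17 are outside the list, and their values are not given here. The genes with an ERSE-II were as many (13 of 8355): CAMTA1, GYS1, HERPUD1, HYOU1, NAV2, NUCB1, PLS3, RAD9A, RUVBL2, SDF2L1, SETD3, SHCBP1 and ZNF143. Of these 3 are on the ER list, and PLS3 had 1248, 1169 and 1206 CPM, highest in replicate 1. RAD9A, outside the list, was among the 50 genes with the largest CV.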

How the data were processed

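Total RNA of 293T 4A cells was sequenced on the HiSeq 2000 platform. The authors mapped the reads with STAR. What they deposited is a table of whole-number counts for each gene, not normalized, from reads with a single alignment. The methods name GRCh38 for the alignment, the labels GRCh37 and Ensembl 75, and whether counting used the strand was not given in the sources used here. The rows that name no gene (counters of unassigned reads, 92 ERCC spike-ins and 88 viral rows at 0 reads) took 69.2% to 74.8% of all reads and stayed out of library sizes. From the deposited table of translation, only the symbols were read; its columns of the authors' own comparisons (ratios, p-values) were not used.

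CPM was computed over reads on gene rows, and CPM per kb over the union of exons in GENCODE 44 on GRCh38 (58207 of 58735 genes). Symbols came from the deposited table (37857 genes) or GENCODE (20429). Exon overlaps were computed with bedtools 2.31.1. Dispersions and scaling used edgeR 4.0.16 and DESeq2 1.42.0 in R 4.3.3, and the other steps Python 3.11.15, pandas 2.3.3, numpy 2.4.6, scipy 1.17.1 and matplotlib 3.10.9. The estimate of spread was tested on simulated data with independent genes and no GC trend, which does not cover the GC and ER differences described here. Nothing was tested between groups. Promoters came from RefSeq (GRCh38.p14).

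The genes and lists were chosen with earlier results of these data known. Named were the 20 genes and 20 nuclear protein-coding genes and 10 lncRNAs with the highest mean CPM, list members at 1 CPM or more in each library (of which the 4 highest per kb with values) or at 3 reads or fewer, family leaders and members at 10% or more, the 15 largest and 5 smallest CV at a mean of 10 CPM or more, and EIF4EBP1 and FGFR1. The leaders per kb, the ER list with the other chaperones, CGAS, TUBB3, further list members and some family members under 10% were added after seeing values. The alternatives were other thresholds, TPM, TMM and DESeq2 scaling, no mitochondrial reads, other lengths, and each replicate left out in turn. Some genes that the rule names are not reported here, while counts over lists and families include them.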

Additional observations from a re-analysis of the deposited data

Results flagged for a closer look

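Reads on the ERCC spike-in rows, synthetic RNAs that no comparison above uses, were found in each library: 74191 in replicate 1, 49859 in replicate 2 and 39983 in replicate 3. They were flagged because these rows lie outside the gene rows and hold more than the 3 reads a count of 0 would allow. Of 92 spike-in rows 41 had more than 3 reads in each library, and 23 had none in any. Scaled to 1000000 reads on genes this was 1283, 918 and 776. No protocol used here mentions spike-ins, and where these reads come from was not tested.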

How the results depend on the processing

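Of 53 alternative values, 44 stayed close, within 1 replicate SD for shares and within 1.5 times for counts and CVs, and 9 did not. Without reads of mitochondrially encoded genes, the nuclear protein-coding share was 95.6%, the 10 most read genes held 3.55% and the first 100 held 12.0%. By TPM in place of CPM they held 44.2% and 52.2%. Lineage markers numbered 104 at 0.1 CPM and 26 at 10 CPM in place of 67. The median CV was 9.23% with 10 reads in all as the only filter, and 3.41% at a mean of 10 CPM or more with GC bins removed, an alternative chosen after seeing the data, against 4.67% at this level with GC left in and 5.60% at a mean of 1 CPM or more. Genes detected ranged from 10111 at 10 CPM to 21385 at 0.1 CPM.

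With each replicate left out in turn, genes detected ranged from 14779 to 14821, the nuclear protein-coding share from 80.4% to 81.2%, the mitochondrial rRNA share from 14.7% to 15.5%, the share of the 10 most read genes from 17.4% to 18.2%, the median CV from 4.19% to 5.45% and the common biological CV from 5.15% to 6.81%. Lineage markers stayed at 67 and families with a leader of 80% or more at 17. No paired analysis was possible because the result comes from no test and only 1 group was used. Depth limits genes at or under 3 reads, which could not be told from 0, and unique alignment limits genes with near-identical copies.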
